A study of Mus musculus with 2 samples.

Results

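The forkhead transcription factor genes of the mouse were followed in RNA sequencing of embryonic lung. Members were all protein-coding genes in both gene tables whose symbol is Fox followed by a class letter from a to s and a number. Of 47 symbols that matched, 3 non-coding genes named for their opposite strand (Foxd2os, Foxo6os and Foxl2os) were left out. This gave 44 members of 21474 protein-coding genes, and 43346 mouse genes in all. The transcripts of Foxp1, Foxp2 and Foxp4 were taken as well.

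The samples formed 1 group, lung of B6NCrl embryos at day 14.5, with 2 libraries numbered as biological replicates and no treatment, genotype or second condition. At this stage the airway tree is branching and alveoli have not formed. Each library started from 10 ng of total RNA with fragments over 200 nt. The labels call each sample both a single lung of pup 1 and a pool of both sexes, so the number of animals per library is uncertain. Sex-linked RNA went against a pool of both sexes in either library: Xist, transcribed from the inactive X chromosome, had 70.1 TPM in replicate 2, against 0.07 TPM in replicate 1, and 4 Y-linked genes summed to 0.05 and 113 TPM in the same order. Sex-linked RNA and replicate therefore cannot be told apart. The collection dates differ, so date and replicate cannot be told apart. Nothing in the labels says whether the libraries come from different litters, and the p-values below compare these 2 libraries only. The libraries held 34535168 counts in replicate 2 (33167255 on mouse genes), against 33601136 in replicate 1 (31940637 on mouse genes), and intervals and floors cover counting error only.

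Forkhead factors share a winged-helix DNA-binding domain and are sorted into lettered classes by the sequence of that domain. In the developing lung, Foxa factors act in the endoderm-derived epithelium as pioneer factors, which open closed chromatin, and Foxf factors act in the mesenchyme, where hedgehog signals from the epithelium induce them. Foxp factors bind DNA as dimers and repress transcription, and Foxj1 starts the programme of motile cilia. Others follow the cell rather than the tissue: Foxm1 drives genes of mitosis, and Foxo factors are kept out of the nucleus by insulin and Akt signals.

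Alternative coding segments of the Foxp genes are printed here because the share of TPM on models that include each of them is given below. Each is read on the coding strand of GRCm38, from the 5′ to the 3′ end, and starts at a codon boundary. Capitals mark in-frame CAG and CAA codons, which encode glutamine. The Foxp1 segment has 96 bases (chr6:99075950-99076045, minus strand) and 32 codons, 24 of them for glutamine. The Foxp2 segment has 63 bases (chr6:15377888-15377950, plus strand) and 21 codons, 9 of them for glutamine. A cassette exon of Foxp2 has 75 bases (chr6:15324613-15324687, plus strand), and the Foxp4 segment has 36 bases (chr17:47875689-47875724, minus strand). These last 2 hold 0 glutamine codons.
Foxp1 segment: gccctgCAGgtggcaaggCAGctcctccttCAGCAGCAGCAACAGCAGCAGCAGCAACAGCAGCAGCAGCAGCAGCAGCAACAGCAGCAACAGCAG
Foxp2 segment: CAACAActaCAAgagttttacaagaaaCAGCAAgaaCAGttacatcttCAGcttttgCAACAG
Foxp2 cassette exon: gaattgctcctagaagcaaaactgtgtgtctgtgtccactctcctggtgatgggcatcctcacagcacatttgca
Foxp4 segment: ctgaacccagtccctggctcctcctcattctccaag

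Promoter sequence is shown for 2 genes whose start sites are named beside the levels below, as the 250 bases before a RefSeq start (GRCm38.p6). An effect of a start site on a level was not tested. Capitals mark CpG dinucleotides. Foxp1 has a start inside the gene (chr6:99028299-99028548, minus strand), 39 bases before the first exon of its leading transcript model by TPM. That window holds 34 CpG at 74.0% GC, and 3.53% of all 32851 windows in the table hold as many. A start further upstream (chr6:99266516-99266765, minus strand), at which the model Foxp1-206 begins, has 3 CpG in its window. The Foxp1 window furthest upstream (chr6:99520994-99521243, minus strand), whose sequence is not printed, holds 11 CpG at 60.8% GC. The most abundant of the longer coding models of Foxp1 described below had no window at its start. The window of Foxf2 (chr13:31625566-31625815, plus strand) holds 21 CpG, and a non-coding gene described below starts within it on the other strand.
Foxp1 internal start: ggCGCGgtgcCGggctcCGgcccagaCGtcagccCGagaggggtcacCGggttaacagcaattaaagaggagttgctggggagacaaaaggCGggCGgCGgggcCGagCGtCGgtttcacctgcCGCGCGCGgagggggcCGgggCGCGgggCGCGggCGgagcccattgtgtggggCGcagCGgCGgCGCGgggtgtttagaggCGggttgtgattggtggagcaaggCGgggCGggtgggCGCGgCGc
Foxp1 upstream start: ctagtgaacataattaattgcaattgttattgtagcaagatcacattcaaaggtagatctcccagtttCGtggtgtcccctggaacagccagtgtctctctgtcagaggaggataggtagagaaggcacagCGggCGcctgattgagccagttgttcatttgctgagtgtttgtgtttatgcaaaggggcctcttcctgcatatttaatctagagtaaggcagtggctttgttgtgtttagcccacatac
Foxf2 start: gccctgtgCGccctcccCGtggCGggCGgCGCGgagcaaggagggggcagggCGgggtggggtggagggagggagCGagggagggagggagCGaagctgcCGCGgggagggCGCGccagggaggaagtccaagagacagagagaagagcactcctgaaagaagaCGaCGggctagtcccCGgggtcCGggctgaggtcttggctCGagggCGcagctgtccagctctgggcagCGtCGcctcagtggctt

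Of the 44 members, 21 (47.7%) reached 1 TPM or more in both libraries, against 58.8% of all protein-coding genes. TPM is the deposited level scaled to the library and corrected for transcript length, so it can be compared between genes. Of these 21, 11 stood at 10 TPM or more in both libraries and 10 between 1 and 10 TPM. Foxc2 passed 1 TPM in replicate 1 only. The median over all 44 was 1.04 TPM, against 4.10 TPM over protein-coding genes. Levels within the family were uneven. The members summed to 606 TPM in replicate 2, against 568 TPM in replicate 1, a mean of 587 ± 27.1 TPM (SD, n = 2). The 5 highest genes carried 65.8% of that sum in replicate 2 and 66.8% in replicate 1, and the 10 highest carried 89.6% and 89.4% in the same order. In bulk tissue, fewer cells of a type and less RNA per cell cannot be told apart.

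**Figure D1:**
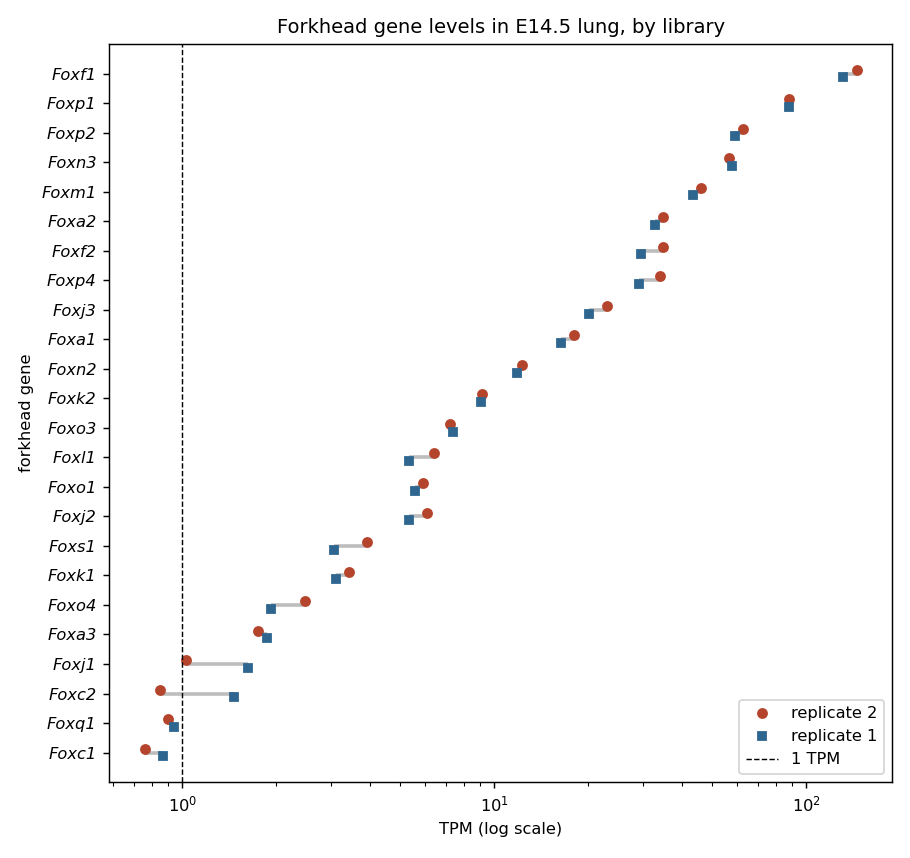
TPM on a log axis for the 24 forkhead genes with 10 or more expected counts in both libraries, circles for replicate 2 and squares for replicate 1, joined by a bar. Foxf1 leads with 146 and 131 TPM, and 21 genes have both points at or right of the 1 TPM line.

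Between neighbours in the order of levels, a pair was called separate where both libraries of one gene stood above both of the other. Of 20 neighbouring pairs among the detected genes, 15 were separate. The 5 pairs that overlapped were Foxa2 with Foxf2, Foxf2 with Foxp4, Foxl1 with Foxo1, Foxo1 with Foxj2, and Foxs1 with Foxk1. No test of one gene against another was made.

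Classes P and F together carried most of the forkhead transcripts. Class P summed to 185 TPM in replicate 2, against 176 TPM in replicate 1, and class F to 180.4 and 160.5 TPM in the same order. Class N followed with 69.0 and 69.9 TPM, class A with 54.5 and 51.1 TPM, class M, which is Foxm1 alone, with 46.1 and 43.6 TPM, and class J with 30.1 and 27.2 TPM. Classes O and K were lower, with 3 of 4 Foxo genes and 2 of 2 Foxk genes detected, and sums of 15.7 and 15.1 TPM for O and 12.6 and 12.2 TPM for K. Among the classes with no detected member were B, C, D, E, H, I, Q and R.

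**Figure D2:**
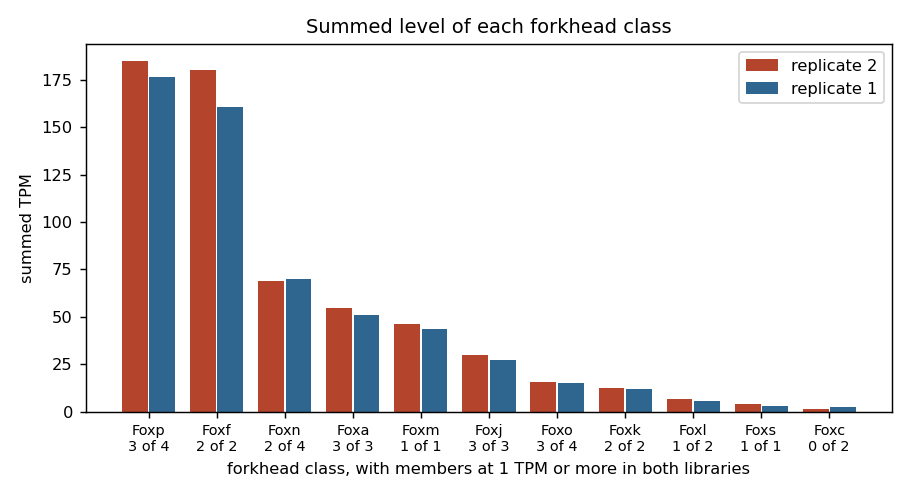
Summed TPM of each forkhead class with a mean sum of 1 TPM or more, left bars for replicate 2 and right bars for replicate 1, with the number of members at 1 TPM or more in both libraries under each name. Classes P and F reach 185 and 180.4 TPM in replicate 2, and the next class, N, reaches 69.0 TPM.

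The mesenchymal class was led by Foxf1, which is required for the vessels and mesenchyme of the lung and whose human counterpart is mutated in alveolar capillary dysplasia. Foxf1 (ENSMUSG00000042812.5, chromosome 8 from 121084386 to 121088144) had 146 TPM in replicate 2, against 131 TPM in replicate 1, a mean of 138 ± 10.3 TPM (SD, n = 2) from 7547 and 6763 counts. It stood at percentile 95.2 of protein-coding genes by mean TPM. Foxf2 (ENSMUSG00000038402.2, chromosome 13 from 31625816 to 31631403), its paralog in gut, palate and lung mesenchyme, had 34.8 TPM in replicate 2, against 29.6 TPM in replicate 1. Foxf1 was thus 4.18 times Foxf2 in replicate 2 and 4.43 times in replicate 1. Foxl1, a hedgehog-responsive gene of gut mesenchyme, had 6.41 TPM in replicate 2, against 5.32 TPM in replicate 1.

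The genes of hedgehog signalling and lung mesenchyme listed with Foxf were all present: 17 of 17 were detected, with list medians of 39.3 TPM in replicate 2, against 37.4 TPM in replicate 1. The ligand gene Shh, made by the epithelium, had 4.99 TPM in replicate 2, against 4.58 TPM in replicate 1, while its receptor and target Ptch1 had 41.9 and 39.0 TPM in the same order. The list was led by the smooth muscle actin gene Acta2 with 734 and 727 TPM, the mesenchymal factor gene Tcf21 with 182 and 186 TPM, and the mesenchymal ligand gene Wnt2 with 82.1 and 77.1 TPM. Foxf1 stood at 0.799 of Tcf21 in replicate 2 and 0.703 in replicate 1.

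Foxf1 and Foxf2 each sit in a cluster of forkhead genes whose levels differed by more than an order of magnitude. On chromosome 8, Foxf1, Foxc2 and Foxl1 lie on the plus strand within 46.3 kb. Foxf1 was 171 times Foxc2 in replicate 2 and 89.1 times in replicate 1, and 22.7 and 24.6 times Foxl1. On chromosome 13, Foxq1, Foxf2 and Foxc1 lie on the plus strand within 256 kb, and Foxf2 was 38.7 times Foxq1 in replicate 2 and 31.5 times in replicate 1. Another cluster on chromosome 4, Foxd2 and Foxe3, had no detected member.

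Non-coding genes that start within 5 kb of a forkhead gene's start on the other strand were seen beside 4 members at 1 TPM or more in at least one library. Fendrr, a long non-coding RNA required for heart and body wall development, starts 1276 bases from Foxf1 and had 57.7 TPM in replicate 2, against 41.9 TPM in replicate 1, from 1989 and 1495 counts. Foxf1 was 2.52 times Fendrr in replicate 2 and 3.13 times in replicate 1. The long non-coding gene 1700018A04Rik starts 24 bases from Foxf2, inside the window printed above, and had 8.65 TPM in replicate 2, against 7.17 TPM in replicate 1. Gm20402, antisense to Foxo1 and overlapping it, had 3.23 and 2.72 TPM, and Foxd2os, 384 bases from Foxd2, had 0.93 and 1.28 TPM. Foxd2 itself had 0.13 TPM in replicate 2, against 0.25 TPM in replicate 1, so there the non-coding gene stood above the forkhead gene in both libraries. The sources used here do not say whether counting used strand, so the split of reads between Gm20402 and Foxo1 is uncertain.

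**Figure D3:**
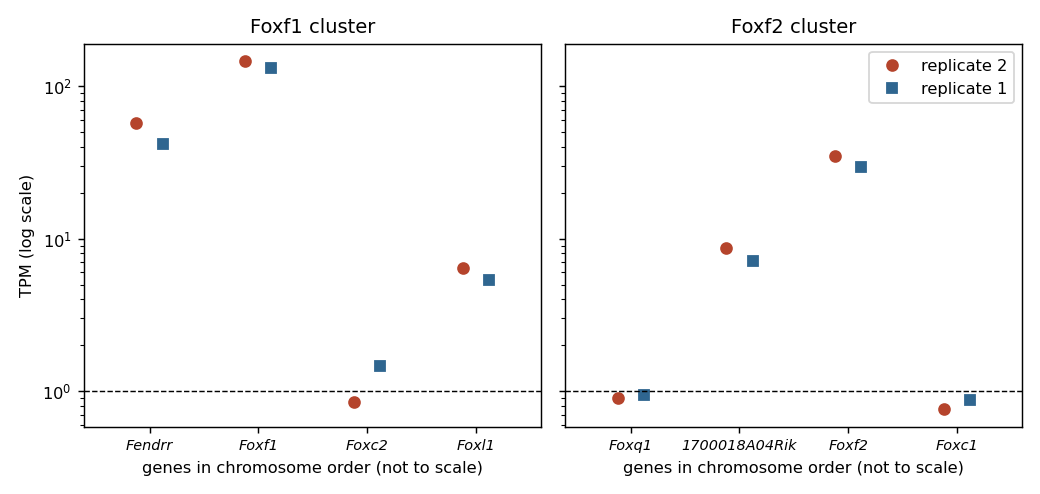
TPM on a log axis for the genes of the Foxf1 and Foxf2 clusters in chromosome order, with the divergent non-coding genes Fendrr and 1700018A04Rik, circles for replicate 2 and squares for replicate 1; the dashed line is 1 TPM. Foxf1 and Foxf2 stand highest in their clusters in both libraries.

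Among the epithelial factors, Foxa2 (ENSMUSG00000037025.7, chromosome 2 from 148042877 to 148046969) had 34.8 TPM in replicate 2, against 32.8 TPM in replicate 1, a mean of 33.8 ± 1.38 TPM. Foxa1 (ENSMUSG00000035451.6, chromosome 12 from 57540628 to 57546916), which acts beside Foxa2 in branching and airway differentiation, had 18.0 TPM in replicate 2, against 16.4 TPM in replicate 1. Foxa2 was 1.93 times Foxa1 in replicate 2 and 2.00 times in replicate 1. Foxa3, known mainly from liver and gut, was low at 1.75 TPM in replicate 2, against 1.87 TPM in replicate 1. The liver markers were also low: 2 of 10 were detected, with sums of 10.8 and 4.70 TPM in the same order, and whether any of the Foxa3 signal came from other tissue was not tested.

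Genes that work with Foxa or are regulated by it were mostly detected, 16 of 18, with medians of 25.0 TPM in replicate 2, against 25.3 TPM in replicate 1. Nkx2-1, the lung identity factor that binds together with Foxa factors at surfactant genes, was 2.21 times Foxa2 in replicate 2 and 2.27 times in replicate 1. The list was led by the surfactant gene Sftpc with 2184 and 2127 TPM, the tip progenitor gene Id2 with 357 and 372 TPM, and the FGF target Etv5 with 195 and 174 TPM. The members not detected were the club cell gene Scgb1a1, with 2 counts in replicate 2 and 1 in replicate 1, and the liver and gut factor gene Hnf4a, with 8 counts and 1 count.

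Of class P, 3 of 4 genes ranked among the 8 highest forkhead genes. Foxp1 (ENSMUSG00000030067.13, chromosome 6 from 98925338 to 99522721) had 87.9 TPM in replicate 2, against 88.0 TPM in replicate 1. Foxp2 (ENSMUSG00000029563.12, chromosome 6 from 14901349 to 15441977) had 62.8 TPM in replicate 2, against 59.2 TPM in replicate 1. These 2 genes cooperate in mouse lung and oesophagus development. Foxp4 (ENSMUSG00000023991.12, chromosome 17 from 47867133 to 47924645), which acts with Foxp1 in airway epithelium, had 33.97 TPM in replicate 2, against 29.17 TPM in replicate 1. Foxp3, the factor of regulatory T cells, had 1.30 and 6.13 expected counts.

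Foxp proteins recruit the NuRD complex and CtBP proteins to repress genes. All 15 of the corepressor genes listed were detected, with medians of 75.9 TPM in replicate 2, against 66.0 TPM in replicate 1. The histone-binding subunits Rbbp7, with 430.2 and 426 TPM, and Rbbp4, with 309 and 312 TPM, led the list, followed by Ctbp1 with 269 and 248 TPM.

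The largest share of Foxp1 TPM was placed on a model that starts inside the gene. Foxp1-225, with 577 codons and a first exon of 96 bases (chromosome 6 from 99028164 to 99028259), carried 37.1% of the gene's TPM in replicate 2 and 40.3% in replicate 1. Its start lies 407 kb downstream of that of Foxp1-204 and next to the CpG-rich window printed above. Foxp1-210, which starts 0.054 kb from it, had 0.82 TPM in replicate 2, against 1.57 TPM in replicate 1, and Foxp1-203, which starts 0.007 kb from it, had 1.14 and 1.19 TPM. Models with longer coding sequences were Foxp1-204 (705 codons) with 12.6% and 11.8%, Foxp1-228 (706 codons) with 9.11% and 10.0%, and Foxp1-206 (673 codons) with 9.05% and 10.2%. Foxp1-229, a processed transcript, took 7.75% and 5.53%, and Foxp1-218, an incomplete coding model, 5.98% and 5.12%. The other models, of 32 in all, carried a mean share under 5% each.

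The picture depends on whether counts or TPM are compared. The 2 models over 7000 nt, Foxp1-204 and Foxp1-206, held 21.7% of Foxp1 TPM in replicate 2 and 22.0% in replicate 1, but 57.5% and 57.1% of its counts. Foxp1-225 held 24.5% of the counts in replicate 2 and 26.1% in replicate 1. By counts Foxp1-204 led, with 33.8% and 31.0% in the same order. Reads in exons that models share are assigned by estimation, so shares are not direct counts: the deposited posterior SD of Foxp1-204 was 206 counts around 1759 in replicate 2, and 263 around 1640 in replicate 1. Among complete coding models that span the glutamine segment printed above, 70.8% of TPM in replicate 2 and 68.7% in replicate 1 lay on models that include it, and Foxp1-206 carried all the rest. Foxp1-225 starts downstream of the segment and lacks it.

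Foxp2 was carried mainly by a full-length model. Foxp2-207 (714 codons) held 49.45% of the gene's TPM in replicate 2 and 48.7% in replicate 1, and 76.5% and 76.8% of its counts. Foxp2-203, a model of 2 exons with 83 codons, held 15.0% and 13.2% of TPM. The retained-intron models Foxp2-211 and Foxp2-213 held 11.5% and 11.2%, and 11.0% and 11.4%. Foxp2-217, a processed transcript, held 4.10% in replicate 2 and 7.86% in replicate 1, from 14.6 and 26.3 counts. The glutamine-containing segment of 63 bases was included in 97.5% of the TPM of the coding models that span it in replicate 2 and 98.6% in replicate 1. The cassette exon of 75 bases was listed at 0% in replicate 2 and 0.341% in replicate 1.

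In Foxp4, 2 models stood close together. Foxp4-202 (673 codons) held 36.25% of TPM in replicate 2 and 32.7% in replicate 1, and Foxp4-204 (672 codons) held 32.0% and 33.1%, so their order differed between the libraries. Foxp4-206, a retained-intron model, held 12.8% and 13.1%, and Foxp4-201 (685 codons) 11.7% and 13.8%. Foxp4-201 includes the segment of 36 bases printed above, and models with it held 14.6% of complete coding TPM in replicate 2 and 17.3% in replicate 1. Most of the lung Foxp4 estimate thus lay on models without those 12 codons.

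**Figure D4:**
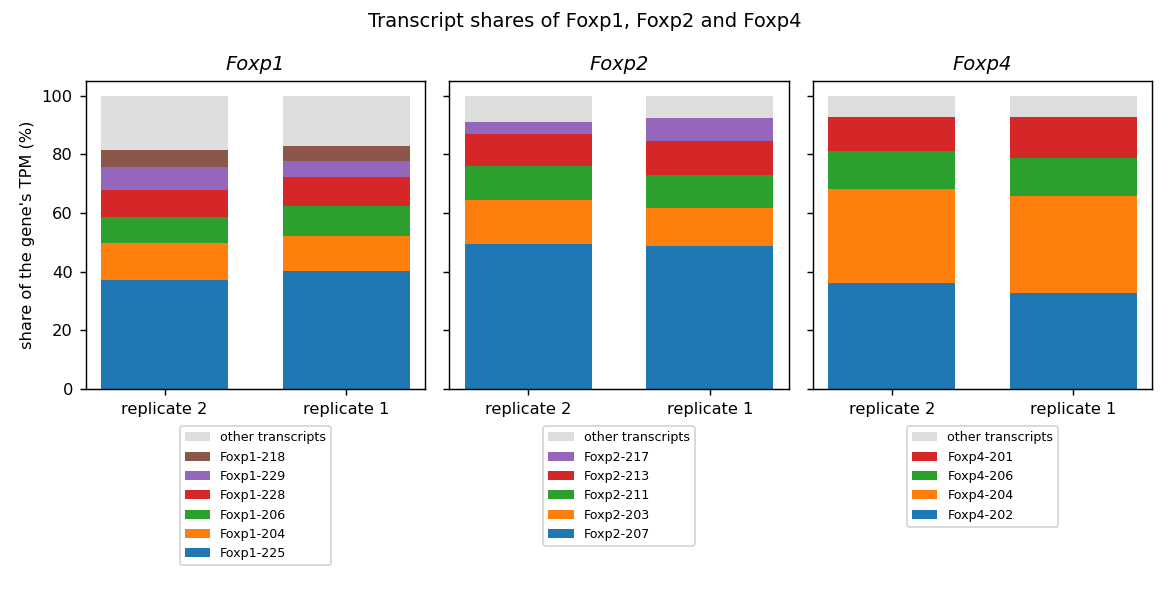
Share of each gene's TPM, in percent, on its transcript models, left bar replicate 2 and right bar replicate 1 in each panel; models with a mean share under 5% are pooled in grey. The lowest block is the leading model, at 37.1% and 40.3% for Foxp1-225, 49.45% and 48.7% for Foxp2-207, and 36.25% and 32.7% for Foxp4-202.

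Of the proliferation factors, Foxm1 (ENSMUSG00000001517.10, chromosome 6 from 128362967 to 128376146) had 46.1 TPM in replicate 2, against 43.6 TPM in replicate 1. Of its listed mitotic targets 18 of 18 were detected, and their medians, 151 TPM in replicate 2, against 146 TPM in replicate 1, were the highest of the 9 target and partner lists. Cdk1, the mitotic kinase, had 559.6 and 532 TPM, the ubiquitin-conjugating enzyme gene Ube2c 499 and 459.8 TPM, and the survivin gene Birc5 322 and 310.2 TPM. Foxn3, a checkpoint-linked repressor, had 56.6 TPM in replicate 2, against 57.9 TPM in replicate 1. Its paralog Foxn2 had 12.3 TPM and 11.8 TPM in the same order.

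Broadly expressed classes were present at moderate levels. Foxk2 had 9.13 TPM in replicate 2, against 9.05 TPM in replicate 1, and Foxk1 had 3.43 and 3.11 TPM; both repress genes with the Sin3 complex. All 8 listed Foxk cofactors were detected, led by Hdac1, Mcm3 and Sin3b at 136 to 196 TPM in replicate 2 and 138 to 193 TPM in replicate 1. Foxj3 had 23.0 TPM in replicate 2, against 20.2 TPM in replicate 1, and Foxj2 had 6.11 and 5.33 TPM.

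Of the Foxo genes, which act downstream of insulin signalling, Foxo3 had 7.24 TPM in replicate 2, against 7.39 TPM in replicate 1, and Foxo1 had 5.92 and 5.56 TPM. Foxo4 had 2.47 TPM in replicate 2, against 1.92 TPM in replicate 1, while Foxo6, a neuronal member, had 5 and 15 counts. Of 20 listed Foxo targets 15 were detected, led by catalase (Cat), the cyclin gene Ccng2 and superoxide dismutase (Sod2), with medians of 11.0 TPM in replicate 2, against 11.1 TPM in replicate 1. The 5 that were not detected were Bcl6, at 1.00 and 0.88 TPM, and the muscle and liver targets Trim63, Igfbp1, G6pc and Pck1, at 0 to 0.09 TPM in replicate 2 and 0 to 0.31 TPM in replicate 1. All 12 listed regulators of Foxo were detected, led by the 14-3-3 genes Ywhae and Ywhaz and the kinase gene Akt1.

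Foxj1, the regulator of motile cilia, was low. It had 1.03 TPM in replicate 2, against 1.63 TPM in replicate 1, from 58 counts (exact 95% Poisson interval 44.0 to 75.0) and 92 counts (74.2 to 112.8). Of 16 listed genes of motile ciliogenesis 8 were detected, with medians of 1.35 TPM in replicate 2, against 1.765 TPM in replicate 1. The list was led by the factor gene Rfx3, with 11.7 TPM in each library, followed by Tekt1 and Ccno. Mcidas, which acts upstream of Foxj1, had 46 counts in replicate 2 and 86 in replicate 1, and the axonemal dynein gene Dnah5 had 3 counts and 1 count. Mcidas was the extreme of the list. Over its 9 tested genes the median log2 ratio of replicate 2 over replicate 1, TMM-scaled as described below, was -0.09. Single ratios ran from -0.96 for Mcidas to 0.23 for Dnaic1.

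Of the vascular class C, Foxc2 had 0.85 TPM in replicate 2, against 1.47 TPM in replicate 1, from 50 counts (37.1 to 65.9) and 86 counts (68.8 to 106.2). These counting intervals, on counts not scaled for library size, did not overlap. The same held for Foxf1, Foxf2, Foxp2, Foxp4 and Foxj3, so it was not particular to Foxc2. Of these, Foxp2 and Foxj3 had adjusted p of 0.109 and 0.149 by the exact binomial test described below. The share over all genes was not computed, and replicate 2 held more counts in all. The lack of overlap is therefore not read as a result about these members. Foxc1 had 0.76 TPM in replicate 2, against 0.87 TPM in replicate 1. The vessel and lymphatic genes listed with class C were detected in 12 of 12 cases, with medians of 12.0 TPM in replicate 2, against 13.6 TPM in replicate 1, led by Kdr, Notch1 and Pdpn. Foxs1, found in derivatives of the neural crest, had 3.91 TPM in replicate 2, against 3.07 TPM in replicate 1. Foxq1, known from hair and stomach, had 0.90 and 0.94 TPM.

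Many other members had few or no counts. Of the 44 genes, 15 had 3 counts or fewer in both libraries, and 8 of these had 0 counts in both. The 8 were Foxb1, Foxb2, Foxd4, Foxe1, Foxe3, Foxi2, Foxi3 and Foxr1, among them the thyroid factor Foxe1 and the lens factor Foxe3. A count of 0 allows up to 3 counts, or 0.0905 CPM (counts scaled to the library's mouse gene total) in replicate 2 and 0.0939 in replicate 1. The other 7 were Foxd1, Foxd3, Foxh1, Foxi1, Foxl2, Foxn1 and Foxr2, which include the thymus factor Foxn1, the ionocyte and inner ear factor Foxi1 and the ovary factor Foxl2. Foxd2 had 7 counts in replicate 2 and 14 in replicate 1, and Foxn4 had 8 and 11.

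Marker lists of thymus, thyroid and ionocytes were mostly not detected in the same libraries. Of 10 thymus markers 2 were detected, Ccl25 and Prss16, and 3 had 0 counts in both libraries. Of 6 thyroid markers 1 was detected, Hhex, which other embryonic cells also express, and of 5 ionocyte markers 0 were. The ionocyte markers Ascl3, Rhcg and Atp6v0d2 and the thyroid markers Tshr and Tg stood at 0 to 0.23 TPM in replicate 2 and 0.04 to 0.35 TPM in replicate 1, and the thymus marker Ptcra at 0.30 and 0.19 TPM. With the detected markers included, the thymus list summed to 8.93 TPM in replicate 2, against 8.88 TPM in replicate 1. The thyroid list summed to 22.9 and 22.1 TPM in the same order. For Foxn1, Foxe1 and Foxi1, low levels stood beside low levels of most listed markers, with Ccl25, Prss16 and Hhex as exceptions. Markers of the labelled tissue were present: 9 of 9 epithelial genes (led by Sftpc, Epcam and Cldn6), 8 of 9 mesenchymal genes (led by Col3a1, Col1a1 and Tcf21) and 9 of 9 endothelial genes (led by Egfl7, Pecam1 and Cdh5) were detected. Also detected were 6 of 6 smooth muscle genes (led by Acta2, Actg2 and Tagln), 6 of 6 mesothelial genes (Krt19, Upk3b and Upk1b), 7 of 7 macrophage genes (C1qb, C1qa and Csf1r) and 6 of 8 erythroid genes (Hbb-bs, Hba-a1 and Alas2). Of the 8 neural crest and glia genes 3 were detected, among them Ret and Tubb3, both at 2.33 TPM or less.

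The 2 libraries were then compared gene by gene for the 22 members with a mean of 1 TPM or more. The test was an exact two-sided binomial test of the 2 scaled counts, adjusted by the Benjamini-Hochberg method over 14870 mouse genes, with calls made at 2-fold or more and an adjusted p under 0.05. It called 0 of the 22 members, against 1.14% of all genes tested. With edgeR's exact test at the dispersion of the 2 libraries it was also 0, against 0.713%. At an unadjusted p under 0.05 there were 8 members by the binomial test, against 33.1% of all genes, and 2 by edgeR, against 3.82%. The median log2 ratio of replicate 2 over replicate 1 was 0.07 over the members and -0.0016 over all genes tested, and the median size of the ratio was 0.09 and 0.10.

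At an adjusted p under 0.05 without a fold limit, 6 members differed by the binomial test, against 22.5% of all genes tested. Of these, with TMM scaling, 3 were higher in replicate 2 (11.0% of all genes), namely Foxf1 with a log2 ratio of 0.10, Foxp4 with 0.17 and Foxf2 with 0.18, at adjusted p of 0.000895, 0.00261 and 0.00361. The other 3 were lower in replicate 2 (11.5% of all genes), namely Foxc2 with a log2 ratio of -0.84, Foxj1 with -0.72 and Foxp1 with -0.09, at adjusted p of 0.00771, 0.0153 and 0.0154, though scaling by spike-ins turned Foxp1 to 0.26. That scaling moved the median gene to 0.34, so Foxp1 still stood below it. With it, 19 of the 22 members passed as higher in replicate 2, against 76.7% of all genes, and 0 as lower, against 1.13%. This test knows counting error only. With edgeR's exact test, which adds the spread between the libraries, 0 members had an adjusted p under 0.05. That spread was estimated from these same 2 libraries, so the 0 cannot show that the members do not differ. The share of all genes at that limit is not given here. For Foxp1 the scaled counts differed slightly while TPM was 87.9 in replicate 2 and 88.0 in replicate 1, and its estimated effective length was 2647 nt in replicate 2 and 2697 nt in replicate 1.

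With TMM scaling, Foxc2 and Foxj1 had the widest differences of the 22, and were the 2 members past a 1.5-fold limit, against 2.68% of all genes past it and 1.70% in that direction. Foxc2 was 1.79-fold and Foxj1 1.65-fold lower in replicate 2. Both had 92 counts or fewer in each library. With spike-in scaling the 2 members past the limit were instead Foxo4 at 0.65 and Foxs1 at 0.63, both higher in replicate 2, against 7.92% of all genes in that direction. Among the 11 members with a mean of 10 TPM or more, TMM-scaled ratios ran from -0.09 for Foxp1 to 0.18 for Foxf2.

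**Figure D5:**
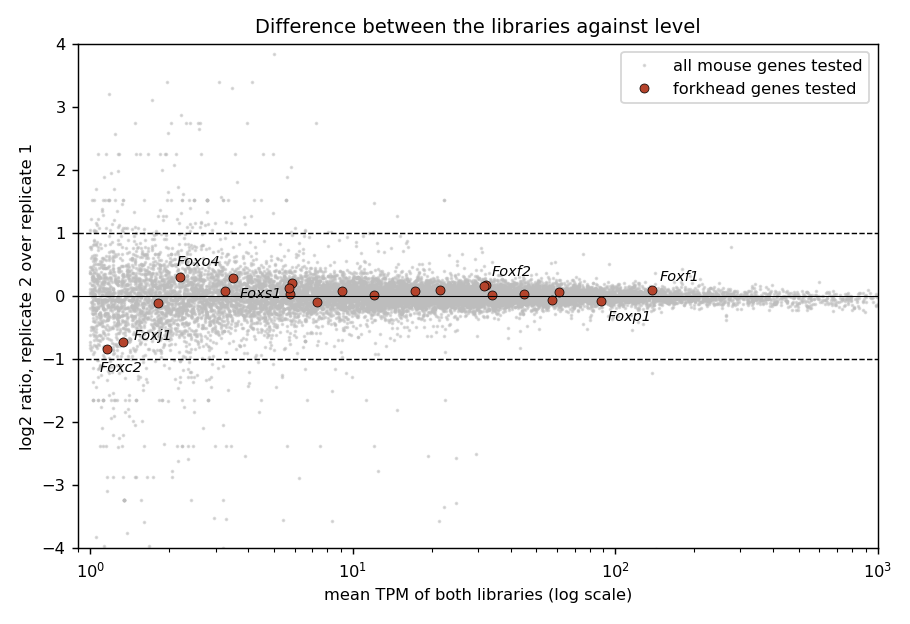
TMM-scaled log2 ratio of replicate 2 over replicate 1 against mean TPM on a log axis for the genes tested; grey points are all mouse genes, of which 150 fall outside the plotted range, red points are the 22 forkhead genes, and dashed lines mark 2-fold. All red points lie between the dashed lines, with Foxc2 at -0.84 and Foxj1 at -0.72 the lowest.

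Markers of heart muscle, which lies beside the lung, differed between the libraries. Of 12 heart muscle markers tested, 10 were lower in replicate 2 at 2-fold or more (Myl7, Myl2, Myl4, Myh6, Nppa, Tnnt2, Tnni3, Tnni1, Actc1 and Mybpc3), and the 16 listed summed to 137 TPM in replicate 2, against 705 TPM in replicate 1. The skeletal muscle genes Ckm, Acta1 and Myl1 and the mesothelial gene Msln were also called lower in replicate 2, and the liver genes Afp and Apoa1 higher, while the skeletal muscle gene Mylpf had 8.72 TPM in replicate 2, against 6.26 TPM in replicate 1. With spike-in scaling Actc1, Acta1 and Msln no longer passed the 2-fold limit, at log2 ratios of -0.88, -0.95 and -0.97, while Alb, Apoa2 and the Foxc target Hey2 passed it as higher in replicate 2, at 1.15, 1.56 and 1.04. Foxc2 and Foxj1 were lower in the same library as the heart genes, and with spike-in scaling their log2 ratios were -0.50 and -0.38, at adjusted p of 0.0725 and 0.144 by the same binomial test. The part of heart muscle, or of any other tissue, in these differences was not tested. With TMM scaling, no member of the lists of smooth muscle, blood, macrophage, neural crest, epithelial, mesenchymal or endothelial genes was called, nor any partner or target on the 9 lists tied to forkhead classes, whose median log2 ratios ran from -0.09 for the motile cilium genes to 0.08 for the Foxk cofactors.

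Foxo4 lies on the X chromosome, whose Xist level differed between the libraries. Its log2 ratio was 0.31 with TMM scaling, at an adjusted p of 0.221 by the exact binomial test, and 0.65 with spike-in scaling, at an adjusted p of 0.000421 by the same test, against a median gene at 0.34. The other X-linked members, Foxp3 with 1.30 and 6.13 counts and Foxr2 with 3 and 0 counts, were too low to enter the test. Any part of the X chromosome or of sex in the Foxo4 ratio was not tested.

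The promoter windows of the family were compared where RefSeq gave one. Of 44 members 28 had a window, 33 windows in all. In the window richest in CpG of each gene, the 12 matched genes that were detected had a median of 24 CpG (5 to 48), and the 16 that were not detected had a median of 12 (3 to 29). The ranges overlapped widely. The median over all windows was 6, without a choice of the richest window per gene, so it is not a like comparison. The forkhead core motif TGTTTAC, searched on both strands, occurred in 1 of the 33 windows, that of Foxa1, and in 3.17% of all windows. The motif CCAAT, also on both strands, occurred in 14 of 33 and in 33.8% of all windows. A match describes letters in the window and not a binding site.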

How the data were processed

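Total RNA of E14.5 mouse lung was sequenced as 2 libraries of 1 group. The deposited gene and transcript tables hold expected counts, TPM (scaled over all features, spike-ins included), posterior mean TPM and posterior SDs, with other columns for lengths and interval bounds. Per the file headers, the transcript tables also give the percent of a gene's TPM on each transcript. Per the deposited read-me files, the authors used mouse build mm10, GENCODE M4 and transcriptome alignments. The sources used here give neither the aligner nor the quantification program nor the use of strand.

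Names and 1-based coordinates were looked up by identifier in GENCODE M21 (GRCm38, equivalent to mm10), and 42462 of 43346 mouse genes matched. Members, gene lists and tests were chosen with earlier results of these data known. Every member with at least 1 TPM in each library counted as detected and was named. Foxp transcripts with a mean share of 5% or more, the 3 highest genes of each list and the listed genes that were called were named as well. The values of 1 member and 1 listed gene are not reported here. Expected counts were rounded then scaled by edgeR's TMM method (version 4.0.16 under R 4.3.3), and log2 ratios are replicate 2 over replicate 1 after adding 0.5. The 14870 genes with a mean of 1 TPM or more entered a two-sided binomial test (exact, with Benjamini-Hochberg adjustment). The test was checked on simulated counts with counting error as the only spread, so the check does not cover further spread between real libraries. It compares 2 libraries, not conditions. Spike-in and phiX entries took 3.96% of counts in replicate 2 and 4.94% in replicate 1, and stayed out of library sizes and tests. Counting intervals are exact at 95%. DESeq2 1.42.0 size factors, spike-in scaling, edgeR's exact test and other limits were tried as alternatives. Sequences came from GRCm38 and, for promoters, from RefSeq on GRCm38.p6, with 250 bases per window.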

Additional observations from a re-analysis of the deposited data

How the results depend on the processing

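The count of detected members was 21, and ran from 18 at a limit of 2 TPM to 24 at 0.5 TPM or at 10 expected counts in both libraries. Without replicate 1 it was 21 and without replicate 2 it was 22. The count of called members was 0 with DESeq2 size factors, spike-in scaling, no filter on low values and edgeR's exact test. A 1.5-fold limit gave 2, Foxc2 and Foxj1 with TMM and Foxo4 and Foxs1 with spike-in scaling. No filter tested 24179 genes and called 538 of them, against 169 of 14870, and spike-in scaling called 290.

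Spike-in scaling moved the median log2 ratio of all genes to 0.34, and 70.0% of called genes were then higher in replicate 2, against 31.4% with TMM. Under it 4 ratios changed sign: Foxa3 stood at 0.22, Foxn3 at 0.27, Foxo3 at 0.24 and Foxp1 at 0.26, all below the shift of the median gene, which is what that scaling adds. The other 18 member ratios kept their sign under spike-in scaling, and 22 of 22 did with DESeq2 size factors.

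The summed TPM was 651 when TPM was rescaled to mouse genes, since spike-ins take part of the deposited total. It ranged from 568 to 606 when either replicate was left out. With posterior mean percent the leading share was 35.7% for Foxp1-225 and 46.1% for Foxp2-207, and the cause was not tested. Leaving out a replicate gave 37.1% to 40.3% for Foxp1-225, 48.7% to 49.45% for Foxp2-207 and 32.7% to 36.25% for Foxp4-202. Foxp4-204 led Foxp4 in replicate 1, at 33.1%.

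The order of levels kept 15 separate neighbours with posterior mean TPM. Counts per kb of the longest model of each gene, an alternative chosen after seeing the data, gave 12 and placed Foxp2 at rank 2, Foxm1 at 3 and Foxp1 at 4, with Foxf1 at 1. No paired analysis was possible because the series has 1 group. Depth limits the values of members with few counts.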
